A study of Arabidopsis thaliana with 8 samples.

Results

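The 44 genes described here are the nuclear genes of Arabidopsis thaliana that code for the light-harvesting antenna proteins and for the nuclear-encoded subunits of both photosystems, out of 36799 gene rows in the count table. They were picked by their gene codes, and comprise 15 LHCB genes (antenna of photosystem II), 6 LHCA genes (antenna of photosystem I), 12 PSA genes (photosystem I subunits) and 11 PSB genes (photosystem II subunits). RNA was sequenced from whole seedlings 10 days old, and the study asked how the loss of the histone-binding proteins ENAP1 and ENAP2 alters gene expression under water deficit. There were 4 groups with 2 libraries each: enap1-1enap2 Dehydration, enap1-1enap2 Mock, Col-0 Dehydration and Col-0 Mock. Dehydration was 4 h on liquid medium with 25% PEG8000, an osmotic agent that withdraws water from the plant, and Mock was the same time on that medium without it. Col-0 is the wild type and the background of the mutant, in which enap1-1 is a deletion made with CRISPR/Cas9 and enap2 carries T-DNA in its first exon. The mutant is 1 double mutant line, so anything else particular to that line cannot be told apart from the loss of both genes. The labels call the replicates BR1 and BR2 but do not say that they were grown apart, so p-values measure only the spread between these libraries.

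Light-harvesting proteins bind chlorophyll and pass excitation energy to the photosystem cores, where photosystem II splits water and photosystem I reduces ferredoxin. The reaction centre proteins themselves are encoded in the plastid genome, whereas the antenna and many outer subunits are encoded in the nucleus, made in the cytosol and imported. Transcripts of the nuclear genes are abundant in green tissue and are known to respond to light, plastid signals, the circadian clock and stress. Several proteins are made from more than 1 gene copy, and the 3 LHCB1 copies of chromosome 1 are close in coding sequence.

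The bases upstream of LHCB1 and LHCB2 copies are shown here, since their transcripts responded to dehydration in different directions. LHCB1.1 (AT1G29920), LHCB1.2 (AT1G29910) and LHCB1.3 (AT1G29930) lie beside each other on chromosome 1 between 10472280 and 10479114, and LHCB1.4 (AT2G34430) and LHCB1.5 (AT2G34420) lie side by side on chromosome 2 between 14522524 and 14525918. The coding sequences of LHCB1.1, LHCB1.2 and LHCB1.3 each have 804 bases and differ pairwise at 29 to 35 of them, whereas LHCB1.4 differs from these 3 at 90 to 101 bases. LHCB2.1 (AT2G05100) and LHCB2.2 (AT2G05070) differ at 57 of 798 aligned coding bases, and LHCB2.3 (AT3G27690) differs from them at 124 and 122. The 250 bases before the start of each gene, as the count table gives that start, are printed in the direction of transcription from the RefSeq TAIR10.1 genome. Capitals mark matches, on either strand, to the ABRE core ACGTG (found in promoters that respond to abscisic acid), the G-box CACGTG (bound by bZIP and bHLH factors, and overlapping the ABRE core), the I-box GATAAG, the CCA1 motif AAAAATCT, the evening element AAAATATCT and CCAATC, a motif linked to the GLK activators of photosynthesis genes.
LHCB1.1, chr1:10475970-10476219, minus strand: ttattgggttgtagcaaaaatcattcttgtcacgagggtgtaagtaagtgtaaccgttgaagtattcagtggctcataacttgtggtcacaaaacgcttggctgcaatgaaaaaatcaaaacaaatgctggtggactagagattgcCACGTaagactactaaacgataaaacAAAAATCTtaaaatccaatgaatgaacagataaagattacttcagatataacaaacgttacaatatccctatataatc
LHCB1.2, chr1:10473503-10473752, minus strand: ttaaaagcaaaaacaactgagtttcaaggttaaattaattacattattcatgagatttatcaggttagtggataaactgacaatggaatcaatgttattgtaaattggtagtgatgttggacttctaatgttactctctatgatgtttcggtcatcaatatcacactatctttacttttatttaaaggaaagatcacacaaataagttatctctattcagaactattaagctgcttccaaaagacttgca
LHCB1.3, chr1:10477635-10477884, plus strand: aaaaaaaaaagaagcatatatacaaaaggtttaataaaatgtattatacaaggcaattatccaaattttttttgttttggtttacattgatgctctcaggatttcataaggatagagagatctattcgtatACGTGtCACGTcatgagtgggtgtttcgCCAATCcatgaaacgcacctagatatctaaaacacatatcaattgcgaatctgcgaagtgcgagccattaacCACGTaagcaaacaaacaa
LHCB1.4, chr2:14524357-14524606, plus strand: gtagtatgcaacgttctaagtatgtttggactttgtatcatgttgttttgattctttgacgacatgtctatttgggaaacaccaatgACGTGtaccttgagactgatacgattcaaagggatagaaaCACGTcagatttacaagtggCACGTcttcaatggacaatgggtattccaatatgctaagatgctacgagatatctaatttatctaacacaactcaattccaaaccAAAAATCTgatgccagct
LHCB2.1, chr2:1824481-1824730, minus strand: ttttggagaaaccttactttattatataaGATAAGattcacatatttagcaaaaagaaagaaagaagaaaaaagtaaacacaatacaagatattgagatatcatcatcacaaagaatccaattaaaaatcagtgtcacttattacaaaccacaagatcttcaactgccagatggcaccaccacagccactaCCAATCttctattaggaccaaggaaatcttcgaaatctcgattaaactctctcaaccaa
LHCB2.2, chr2:1800473-1800722, minus strand: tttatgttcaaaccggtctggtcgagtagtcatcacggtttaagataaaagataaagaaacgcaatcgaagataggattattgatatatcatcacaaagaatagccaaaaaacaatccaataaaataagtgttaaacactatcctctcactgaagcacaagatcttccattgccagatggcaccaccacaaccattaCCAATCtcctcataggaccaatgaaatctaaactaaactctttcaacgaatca
LHCB2.3, chr3:10255656-10255905, plus strand: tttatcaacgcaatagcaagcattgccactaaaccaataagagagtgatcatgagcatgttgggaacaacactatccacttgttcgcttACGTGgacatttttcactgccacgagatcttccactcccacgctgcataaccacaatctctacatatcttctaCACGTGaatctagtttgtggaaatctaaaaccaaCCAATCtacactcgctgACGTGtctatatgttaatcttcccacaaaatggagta
The window of LHCB1.1 held 1 ABRE core and 1 CCA1 motif, and that of LHCB1.4 held 3 ABRE cores and 1 CCA1 motif. The window of LHCB1.2 held none of the 6 motifs, and that of LHCB1.3 held 3 ABRE cores and 1 CCAATC. LHCB2.1 and LHCB2.2 each had 1 CCAATC, LHCB2.1 had an I-box as well, and LHCB2.3 had 4 ABRE cores, of which the palindromic G-box counts for 2, and 1 CCAATC. A match is a description of the letters and not a shown binding site, and a window without a match says nothing of the factor.

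The 8 libraries held 24007691 to 48279415 counts, so that 3 counts, taken as the floor, were worth 0.0621 to 0.125 CPM, the level of a gene scaled to a common library total. In all libraries the 44 genes together took 3.85% to 5.59% of the raw counts. The share was 3.851% and 4.228% in enap1-1enap2 Dehydration, against 4.871% and 4.855% in enap1-1enap2 Mock. In Col-0 it was 4.114% and 4.166% in Dehydration, against 5.055% and 5.592% in Mock. It was thus lower in every dehydrated library than in any mock library. ENAP1 had 3.81 to 12.2 CPM in the 4 enap1-1enap2 libraries, against 13.9 to 24.4 CPM in the 4 Col-0 libraries, and ENAP2 had 3.10 to 4.92 CPM against 7.22 to 9.32 CPM, so both genes were lower in every library labelled as mutant, with reads left. The Col-0 Mock libraries stood apart from each other: 39 of the 43 tested members were higher in replicate 2 than in replicate 1, with a median ratio of 1.17, while in the other groups the median ratio was 0.991 to 1.05.

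All 44 genes were found in the table and 43 had enough counts to be tested. LHCB1.5 had 0 counts in all 8 libraries, and all 1045 of its exon bases are also exon of AT2G08665, a gene annotated on the opposite strand. Reads that overlap more than 1 gene are not counted under the default setting of featureCounts, the counting program, so the 0 of LHCB1.5 is no measure of its expression. Of the other members, 16 shared exon bases with another gene, with the largest shares in PSAG (61.4%), PSAH1 (53.3%), LHCB2.3 (40.6%) and PSAE1 (34.1%), whose levels are understated for that reason. Exon windows of 100 bases that occur again in the genome made up 10.7% of LHCB2.1, 13.7% of LHCB2.2 and 1.5% to 4.4% of the LHCB1 copies, and 37 of 44 members had none. Reads from such windows could be lost or misplaced between copies. The 20 plastid-encoded photosystem genes could not be set beside the nuclear ones, because all 133 plastid rows held 0 counts.

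Levels between genes were compared in TPM, a level scaled to the library total and to gene length. LHCB1.3, a main subunit of the major trimeric antenna, was by far the most abundant of the tested members. It had 8903 ± 854 TPM in enap1-1enap2 Dehydration, 13420 ± 94.1 TPM in enap1-1enap2 Mock, 13180 ± 18.4 TPM in Col-0 Dehydration and 15080 ± 1149 TPM in Col-0 Mock (SD, n = 2 each). PSBR, a subunit near the oxygen-evolving complex, was the next in Col-0 Mock with 5602 ± 488 TPM, and PSBO1, which shields the manganese cluster, had 2924 ± 268 TPM. PSBO1, PSAK, PSBP1, PSAO, LHCB1.2, LHCB4.1 and PSAF followed each other within 2573 to 2924 TPM, where each differed from the next by less than the SD of PSBO1. At the low end of the tested members lay LHCB4.3 (37.2 TPM), LHCB2.3 (23.8 TPM) and LHCB7 (20.7 TPM).

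The dehydration response was tested by quasi-likelihood in edgeR, with p-values adjusted by Benjamini-Hochberg over all 21614 genes tested, and a gene is said to have risen or fallen where the adjusted p was under 0.05. In enap1-1enap2, 13 members rose and 14 fell, at an all-gene rate of 64.6% past the test (32.2% rose and 32.4% fell). In Col-0, 4 members rose and 26 fell, at an all-gene rate of 59.7% (29.7% rose and 30.0% fell). The share of members past the test was thus 62.8% in enap1-1enap2 and 69.8% in Col-0, near the rate of all genes. The 4 libraries of a comparison did not overlap between Dehydration and Mock for 38 members in enap1-1enap2, at an all-gene rate of 84.4%, and for 35 in Col-0, at an all-gene rate of 78.9%. The median log2 fold change of the members was -0.01 in enap1-1enap2 and -0.33 in Col-0, beside -0.01 and -0.03 for all genes tested.

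Antenna and subunit genes were counted separately, and the difference between these classes was not tested. Beside these counts, the all-gene rates were 32.2% risen and 32.4% fallen in enap1-1enap2, and 29.7% risen and 30.0% fallen in Col-0. Of the 20 antenna genes tested, 9 rose and 4 fell in enap1-1enap2, and 4 rose and 9 fell in Col-0. Of the 23 subunit genes, 4 rose and 10 fell in enap1-1enap2, and 17 fell and 0 rose in Col-0, where no subunit was higher at an unadjusted p under 0.05 in edgeR or at an adjusted p under 0.05 in DESeq2. The median log2 fold change was 0.15 for the antenna and -0.15 for the subunits in enap1-1enap2, and -0.12 for the antenna and -0.46 for the subunits in Col-0. The antenna median in enap1-1enap2 was 0.05 without enap1-1enap2 Dehydration replicate 2, and that in Col-0 was -0.27 without Col-0 Mock replicate 1 and -0.03 without Col-0 Mock replicate 2. Scaling by the upper quartile or by library size alone lowered the all-gene median by 0.16 to 0.19 in both genotypes. Under these scalings the antenna median in enap1-1enap2 was -0.01, which still lay above the all-gene median of -0.17, and the members of enap1-1enap2 split into 7 risen and 19 fallen or into 8 risen and 21 fallen. Of the calls, 20 of 27 in enap1-1enap2 and 24 of 30 in Col-0 held with each of the 8 libraries left out in turn.

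**Figure D1:**
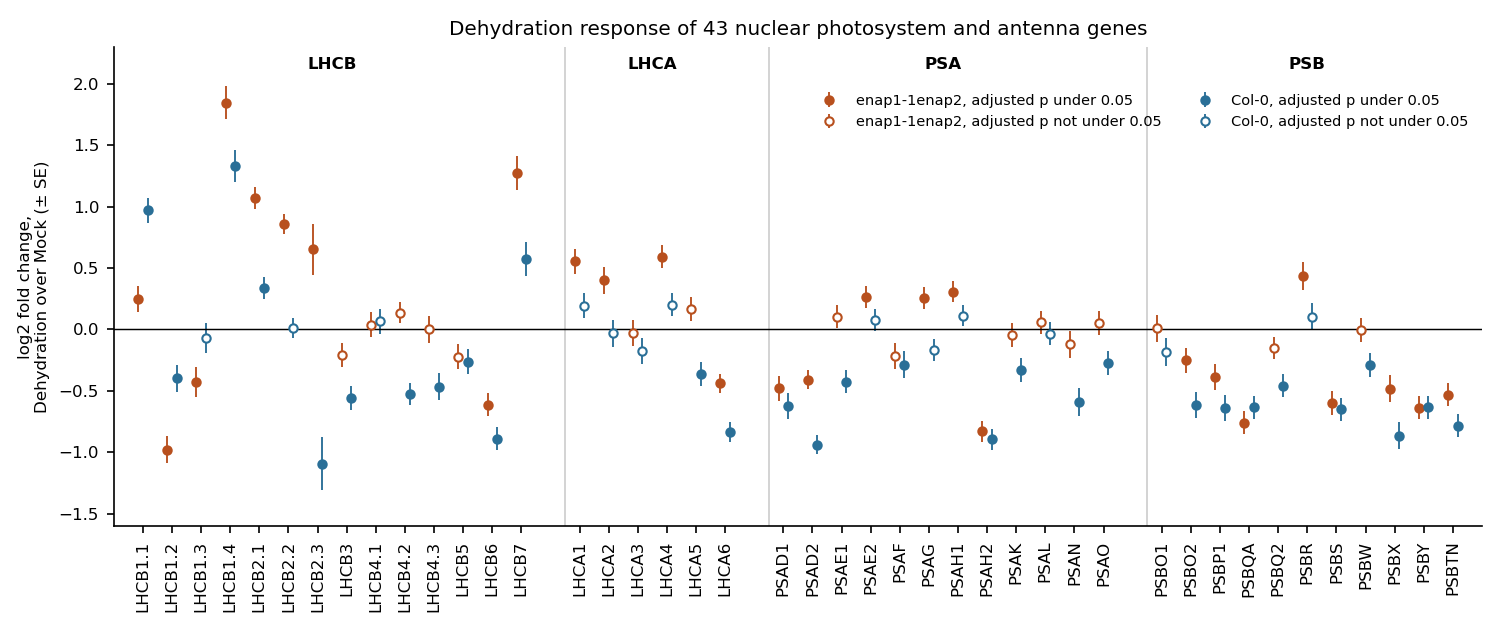
Log2 fold change of Dehydration over Mock (± SE) for the 43 tested members, in enap1-1enap2 (orange) and Col-0 (blue), grouped by class. Filled points have an adjusted p under 0.05. The LHCB genes spread from -0.98 to 1.85 in enap1-1enap2 and from -1.09 to 1.33 in Col-0, while the PSB genes lie mostly below 0.

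Few members passed the thresholds of the study, which add to the adjusted p an unadjusted p under 0.01 and a log2 fold change beyond 1 in either direction. In enap1-1enap2 these were 3 antenna genes, all higher (LHCB1.4, LHCB7 and LHCB2.1), at an all-gene rate of 26.7%. In Col-0 they were LHCB1.4, which rose, and LHCB2.3, which fell, at an all-gene rate of 21.7%. In Col-0 the number was 7 with upper quartile scaling and 7 with library size alone, and LHCB2.3 no longer passed the fold threshold without Col-0 Mock replicate 1, where its log2 change was -0.59.

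The LHCB1 copies, which make the bulk of the major antenna trimer, moved in different directions. LHCB1.4 had 898 and 1265 CPM in enap1-1enap2 Dehydration, against 294 and 308 CPM in enap1-1enap2 Mock, and 1028 and 1196 CPM in Col-0 Dehydration, against 442 and 441 CPM in Col-0 Mock. It was higher in every dehydrated library than in any mock library of its genotype, and its log2 fold change was 1.85 ± 0.13 in enap1-1enap2 (SE, edgeR adjusted p = 7.4e-09) and 1.33 ± 0.13 in Col-0 (edgeR adjusted p = 3.72e-07). LHCB1.1 had 293 and 371 CPM in enap1-1enap2 Dehydration, against 278 and 280 CPM in enap1-1enap2 Mock, and 771 and 796 CPM in Col-0 Dehydration, against 384 and 416 CPM in Col-0 Mock. The rise was 0.97 ± 0.10 in Col-0 (edgeR adjusted p = 9.57e-07) and 0.25 ± 0.10 in enap1-1enap2 (edgeR adjusted p = 0.0469), and the rise in enap1-1enap2 lost its call with any 1 of 5 libraries left out, namely enap1-1enap2 Dehydration replicate 2 (edgeR adjusted p = 0.622), either enap1-1enap2 Mock library (0.165 and 0.177) or either Col-0 Dehydration library (0.0599 and 0.06). It was also lost under the 3 other scalings (0.0505 to 0.473). LHCB1.2 had 790 and 941 CPM in enap1-1enap2 Dehydration, against 1729 and 1680 CPM in enap1-1enap2 Mock, and 1470 and 1465 CPM in Col-0 Dehydration, against 1796 and 2072 CPM in Col-0 Mock. It fell by 0.98 in log2 units in enap1-1enap2 and by 0.40 in Col-0. LHCB1.3 had 6643 and 7491 CPM in enap1-1enap2 Dehydration, against 9563 and 9476 CPM in enap1-1enap2 Mock, and 10660 and 10450 CPM in Col-0 Dehydration, against 9959 and 12160 CPM in Col-0 Mock. It fell by 0.43 in enap1-1enap2 (edgeR adjusted p = 0.00587), while the Col-0 groups overlapped and their change was -0.07 ± 0.12.

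LHCB1.3 made up most of the summed counts of the 4 counted LHCB1 copies. The sum was 8625 and 10070 CPM in enap1-1enap2 Dehydration, against 11860 and 11740 CPM in enap1-1enap2 Mock, and 13930 and 13900 CPM in Col-0 Dehydration, against 12580 and 15090 CPM in Col-0 Mock. It was thus lower in dehydrated than in mock mutant libraries, whereas in Col-0 the groups overlapped. Within the sum, in TPM, the share of LHCB1.4 was 9.85% and 11.9% in enap1-1enap2 Dehydration, against 2.33% and 2.46% in enap1-1enap2 Mock, and 6.97% and 8.13% in Col-0 Dehydration, against 3.31% and 2.75% in Col-0 Mock.

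**Figure D2:**
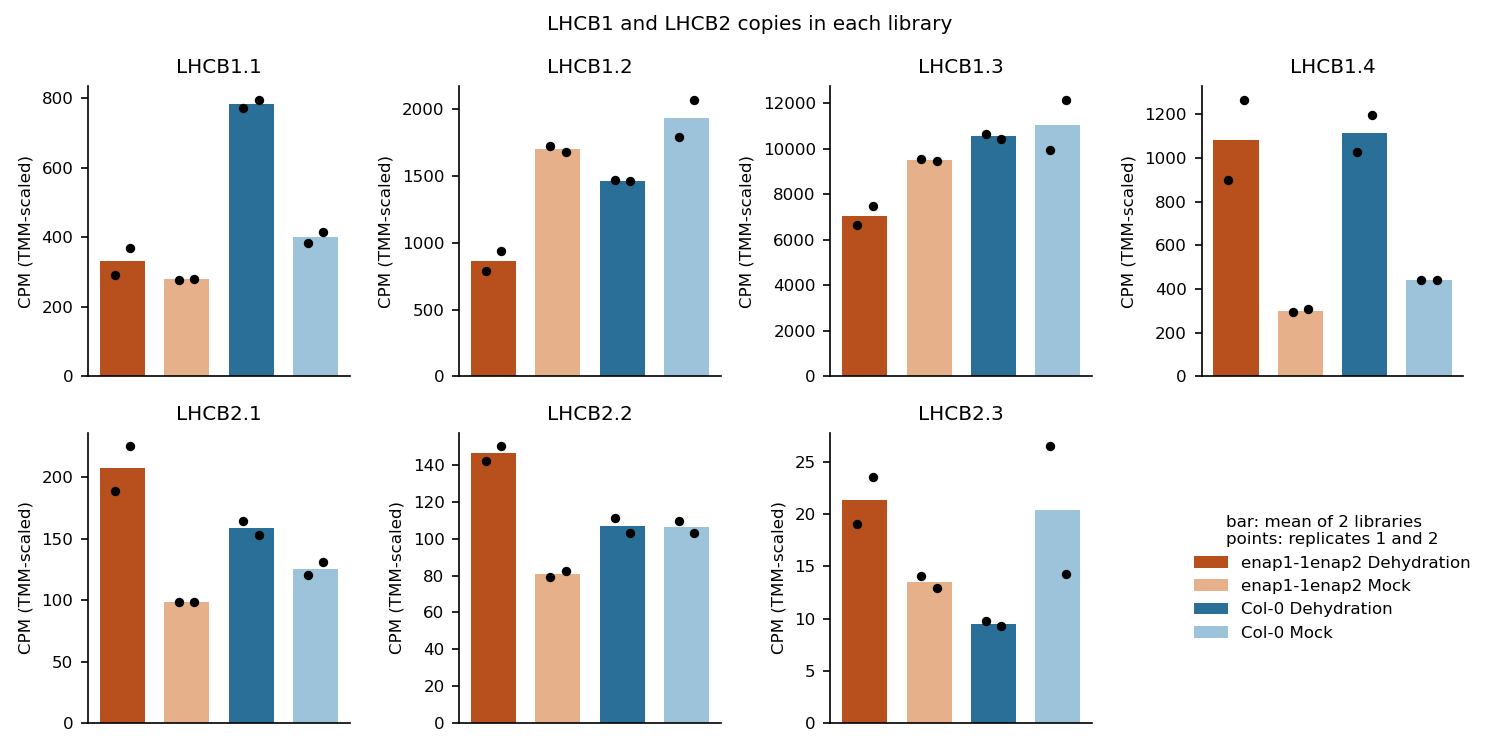
Levels of 7 LHCB1 and LHCB2 copies in TMM-scaled CPM, each panel from 0. Bars are means of 2 libraries and points are the libraries. LHCB1.4 is higher in the 4 dehydrated libraries than in the 4 mock ones, LHCB1.1 has its highest level in Col-0 Dehydration (771 and 796 CPM), and LHCB2.3 has its lowest level there (9.74 and 9.30 CPM).

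LHCB2 proteins share the trimer with LHCB1 and are the form that is quickly phosphorylated when antenna moves between the photosystems. LHCB2.1 had 189 and 225 CPM in enap1-1enap2 Dehydration, against 98.6 and 98.7 CPM in enap1-1enap2 Mock, and 164 and 153 CPM in Col-0 Dehydration, against 120 and 131 CPM in Col-0 Mock. Its log2 rise was 1.07 ± 0.09 in enap1-1enap2 and 0.34 ± 0.09 in Col-0. The rise in Col-0 did not pass under the upper quartile scaling or with library size alone (edgeR adjusted p = 0.153 and 0.138). It also did not pass without Col-0 Dehydration replicate 1, where it was 0.28. LHCB2.2 had 142 and 150 CPM in enap1-1enap2 Dehydration, against 79.0 and 82.7 CPM in enap1-1enap2 Mock, and 111 and 103 CPM in Col-0 Dehydration, against 110 and 103 CPM in Col-0 Mock. It rose by 0.86 ± 0.08 in the mutant, while the Col-0 groups overlapped. LHCB2.3 had 19.1 and 23.6 CPM in enap1-1enap2 Dehydration, against 14.1 and 12.9 CPM in enap1-1enap2 Mock, and 9.74 and 9.30 CPM in Col-0 Dehydration, against 26.5 and 14.3 CPM in Col-0 Mock. It rose by 0.65 ± 0.21 in the mutant and fell by 1.09 in Col-0, where the fall was 0.59 without Col-0 Mock replicate 1 and 1.48 without replicate 2. The rise in the mutant lost its call under the upper quartile scaling and with library size alone (edgeR adjusted p = 0.0525 and 0.0809). The call was also lost without enap1-1enap2 Dehydration replicate 2 (log2 change 0.49) and without enap1-1enap2 Mock replicate 2 (0.59).

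Of the other LHCB genes, some fell, 1 rose and others did not pass the test. LHCB3, the third protein of the trimer, had 464 and 492 CPM in enap1-1enap2 Dehydration, against 556 and 548 CPM in enap1-1enap2 Mock, and 442 and 451 CPM in Col-0 Dehydration, against 597 and 720 CPM in Col-0 Mock. Its log2 level fell by 0.56 in Col-0, and the mutant change of -0.21 ± 0.10 did not pass the test. Among the minor antenna proteins, which link the trimers to the core, LHCB6 had 508 and 540 CPM in enap1-1enap2 Dehydration, against 798 and 804 CPM in enap1-1enap2 Mock, and 519 and 520 CPM in Col-0 Dehydration, against 891 and 1036 CPM in Col-0 Mock. LHCB6 fell in both genotypes, by 0.61 and by 0.89. LHCB4.1 (CP29) had 2082 and 2149 CPM in enap1-1enap2 Dehydration, against 2069 and 2049 CPM in enap1-1enap2 Mock, and 2317 and 2188 CPM in Col-0 Dehydration, against 1972 and 2332 CPM in Col-0 Mock. Its log2 changes were 0.04 ± 0.10 in the mutant and 0.07 ± 0.10 in Col-0, where the groups overlapped. Its paralog LHCB4.2 had 339 and 388 CPM in enap1-1enap2 Dehydration, against 334 and 327 CPM in enap1-1enap2 Mock, and 228 and 244 CPM in Col-0 Dehydration, against 342 and 339 CPM in Col-0 Mock. LHCB4.2 fell in Col-0 by 0.53, with 0.14 ± 0.09 in the mutant, so that LHCB4.1 made up 85.0% and 83.6% of the LHCB4 TPM in enap1-1enap2 Dehydration, against 90.1% and 88.9% in Col-0 Dehydration. LHCB4.3, a form of low level, had 22.9 and 24.7 CPM in enap1-1enap2 Dehydration, against 24.5 and 22.9 CPM in enap1-1enap2 Mock, and 23.5 and 23.01 CPM in Col-0 Dehydration, against 28.9 and 35.3 CPM in Col-0 Mock, and it fell by 0.47 in Col-0. LHCB5 (CP26), the remaining minor antenna protein, had -0.22 ± 0.10 in the mutant and fell by 0.26 in Col-0, a call that was lost with any 1 of 5 libraries left out: either enap1-1enap2 Mock library, either Col-0 Dehydration library or Col-0 Mock replicate 2 (edgeR adjusted p = 0.0598 to 0.15). LHCB7, a rare member of the family, had 28.1 and 28.8 CPM in enap1-1enap2 Dehydration, against 13.2 and 10.2 CPM in enap1-1enap2 Mock, and 20.8 and 23.9 CPM in Col-0 Dehydration, against 13.4 and 16.6 CPM in Col-0 Mock, and rose by 1.28 ± 0.14 and by 0.57 ± 0.14.

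Of the 6 LHCA genes, LHCA1, LHCA2 and LHCA4 rose in enap1-1enap2, with log2 fold changes of 0.55, 0.40 and 0.59, and the values in Col-0 were 0.19, -0.03 and 0.20, not past the test in edgeR. In Col-0, 0 LHCA genes rose in edgeR, at an all-gene rate of 29.7%. At an unadjusted p under 0.05 the number was also 0, and DESeq2 called 2 higher. The rise of LHCA2 in the mutant was lost under the upper quartile scaling (edgeR adjusted p = 0.0577) and without enap1-1enap2 Mock replicate 2 (edgeR adjusted p = 0.0502). LHCA1 to LHCA4 form the crescent-shaped antenna of photosystem I. LHCA4 had 1281 and 1459 CPM in enap1-1enap2 Dehydration, against 905 and 911 CPM in enap1-1enap2 Mock, and 1190 and 1250 CPM in Col-0 Dehydration, against 1038 and 1083 CPM in Col-0 Mock. LHCA2 had 2361 and 2310 CPM in enap1-1enap2 Dehydration, against 1779 and 1764 CPM in enap1-1enap2 Mock, and 1927 and 1833 CPM in Col-0 Dehydration, against 1702 and 2141 CPM in Col-0 Mock, with no overlap in the mutant and overlap in Col-0. LHCA3 had a log2 change of -0.03 ± 0.11 in the mutant and -0.18 ± 0.11 in Col-0. LHCA5 and LHCA6, which link photosystem I to the NDH complex, both fell in Col-0. LHCA6 had 70.2 and 72.3 CPM in enap1-1enap2 Dehydration, against 97.4 and 95.8 CPM in enap1-1enap2 Mock, and 60.9 and 63.1 CPM in Col-0 Dehydration, against 106 and 114 CPM in Col-0 Mock. LHCA6 fell by 0.44 in the mutant and by 0.83 in Col-0. LHCA5 had 109 and 109 CPM in enap1-1enap2 Dehydration, against 99.6 and 94.7 CPM in enap1-1enap2 Mock, and 82.5 and 86.4 CPM in Col-0 Dehydration, against 96.7 and 120 CPM in Col-0 Mock. It fell by 0.36 in Col-0, with 0.17 ± 0.10 in the mutant, not past the test. The Col-0 fall was 0.51 without Col-0 Mock replicate 1 and 0.20 without Col-0 Mock replicate 2 (edgeR adjusted p = 0.0479).

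Among the 12 PSA genes, 3 rose and 3 fell in enap1-1enap2, at all-gene rates of 32.2% and 32.4%. In Col-0, 8 fell and 0 rose, at all-gene rates of 30.0% and 29.7%. None was higher in Col-0 at an unadjusted p under 0.05 in edgeR or by DESeq2. PSAD and PSAE form the stromal side where ferredoxin docks. PSAD2 had 197 and 201 CPM in enap1-1enap2 Dehydration, against 260 and 269 CPM in enap1-1enap2 Mock, and 147 and 146 CPM in Col-0 Dehydration, against 269 and 291 CPM in Col-0 Mock. It fell by 0.41 in the mutant and by 0.94 in Col-0. Its paralog PSAD1 had 814 and 854 CPM in enap1-1enap2 Dehydration, against 1169 and 1154 CPM in enap1-1enap2 Mock, and 778 and 715 CPM in Col-0 Dehydration, against 1040 and 1261 CPM in Col-0 Mock, and it fell by 0.48 and by 0.62. PSAE1 had 256 and 291 CPM in enap1-1enap2 Dehydration, against 250 and 259 CPM in enap1-1enap2 Mock, and 231 and 245 CPM in Col-0 Dehydration, against 299 and 342 CPM in Col-0 Mock, and it fell by 0.43 in Col-0, with 0.10 ± 0.09 in the mutant. PSAE2 had 410 and 441 CPM in enap1-1enap2 Dehydration, against 357 and 352 CPM in enap1-1enap2 Mock, and 399 and 406 CPM in Col-0 Dehydration, against 352 and 411 CPM in Col-0 Mock. It rose by 0.26 in the mutant, and the Col-0 value was 0.08 ± 0.09. The mutant rise was lost under the upper quartile scaling and with library size alone (edgeR adjusted p = 0.326 and 0.251). It was also lost without enap1-1enap2 Dehydration replicate 2 (log2 change 0.21) and without either enap1-1enap2 Mock library (0.27 and 0.25). PSAF and PSAN, on the side where plastocyanin docks, had -0.21 ± 0.11 and -0.12 ± 0.11 in the mutant and fell by 0.29 and by 0.59 in Col-0, and the fall of PSAF was lost with any 1 of 5 libraries left out: either enap1-1enap2 Mock library, either Col-0 Dehydration library or Col-0 Mock replicate 2 (edgeR adjusted p = 0.0559 to 0.107).

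PSAH, PSAL and PSAO lie on the side of photosystem I where mobile antenna binds, and PSAH is made from a pair of gene copies. PSAH2 had 174 and 175 CPM in enap1-1enap2 Dehydration, against 311 and 309 CPM in enap1-1enap2 Mock, and 163 and 176 CPM in Col-0 Dehydration, against 297 and 334 CPM in Col-0 Mock. PSAH1 had 324 and 297 CPM in enap1-1enap2 Dehydration, against 250 and 252 CPM in enap1-1enap2 Mock, and 259 and 255 CPM in Col-0 Dehydration, against 222 and 253 CPM in Col-0 Mock. PSAH2 fell by 0.83 in the mutant and by 0.89 in Col-0, and the changes of PSAH1 were 0.31 ± 0.09 and 0.11 ± 0.09. The mutant rise of PSAH1 was lost under the upper quartile scaling and with library size alone (edgeR adjusted p = 0.139 and 0.0779). It was also lost without enap1-1enap2 Dehydration replicate 1 (log2 change 0.24) or enap1-1enap2 Mock replicate 1 (0.30). In TPM, PSAH1 made up 50.2% and 47.8% of the pair in enap1-1enap2 Dehydration, against 30.2% and 30.6% in enap1-1enap2 Mock, and 46.2% and 43.8% in Col-0 Dehydration, against 28.8% and 29% in Col-0 Mock. PSAH1 shares 693 of its 1300 exon bases with AT3G16130, and PSAH2 shares 174 of its 702 with AT1G52240. The levels of both are thus lower estimates. PSAL changed least of the PSA genes in Col-0, with 1602 and 1627 CPM in enap1-1enap2 Dehydration, against 1567 and 1537 CPM in enap1-1enap2 Mock, and 1491 and 1471 CPM in Col-0 Dehydration, against 1425 and 1610 CPM in Col-0 Mock. PSAG, which helps to anchor the photosystem I antenna, rose by 0.26 in the mutant and had -0.17 ± 0.09 in Col-0. That rise too was lost under the upper quartile scaling and with library size alone (edgeR adjusted p = 0.352 and 0.325). It was also lost without enap1-1enap2 Dehydration replicate 2 (log2 change 0.18) or either enap1-1enap2 Mock library (0.27 and 0.24). PSAO and PSAK, whose product sits opposite PSAG, fell by 0.27 and by 0.33 in Col-0, with 0.05 ± 0.10 and -0.04 ± 0.10 in the mutant. The fall of PSAO was lost without either Col-0 Dehydration library (edgeR adjusted p = 0.0634 and 0.108) and that of PSAK without Col-0 Dehydration replicate 2 (edgeR adjusted p = 0.0575).

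The PSB genes had the lowest median response of the 4 classes, -0.39 in enap1-1enap2 and -0.63 in Col-0. Of the 11 genes, 7 and 9 fell, at all-gene rates of 32.4% and 30.0%. PSBO, PSBP, PSBQ and PSBR serve the oxygen-evolving complex. PSBQA had 636 and 658 CPM in enap1-1enap2 Dehydration, against 1089 and 1100 CPM in enap1-1enap2 Mock, and 716 and 715 CPM in Col-0 Dehydration, against 1039 and 1179 CPM in Col-0 Mock, and it fell by 0.76 and by 0.63. Its paralog PSBQ2 had 857 and 887 CPM in enap1-1enap2 Dehydration, against 970 and 966 CPM in enap1-1enap2 Mock, and 746 and 724 CPM in Col-0 Dehydration, against 942 and 1077 CPM in Col-0 Mock. It fell by 0.46 in Col-0, with -0.15 ± 0.09 in the mutant, and PSBP1 fell in both, by 0.39 and by 0.64. PSBO2 had 569 and 573 CPM in enap1-1enap2 Dehydration, against 686 and 674 CPM in enap1-1enap2 Mock, and 451 and 404 CPM in Col-0 Dehydration, against 586 and 722 CPM in Col-0 Mock. PSBO2 fell by 0.25 in the mutant and by 0.61 in Col-0. The more abundant PSBO1 had 2573 and 2570 CPM in enap1-1enap2 Dehydration, against 2579 and 2536 CPM in enap1-1enap2 Mock, and 2401 and 2237 CPM in Col-0 Dehydration, against 2340 and 2920 CPM in Col-0 Mock. Both of its comparisons overlapped, with log2 changes of 0.01 ± 0.11 and -0.18 ± 0.11. The mutant fall of PSBO2 was lost with any 1 of 5 libraries left out, namely the 4 of the mutant and Col-0 Dehydration replicate 2 (edgeR adjusted p = 0.0511 to 0.165).

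PSBR was the only PSB gene to rise in either genotype by the test. It had 3030 and 3342 CPM in enap1-1enap2 Dehydration, against 2349 and 2356 CPM in enap1-1enap2 Mock, and 2754 and 2883 CPM in Col-0 Dehydration, against 2339 and 2900 CPM in Col-0 Mock, with log2 changes of 0.44 ± 0.11 and 0.11 ± 0.11. PSBS, the sensor protein of energy-dependent quenching, had 705 and 728 CPM in enap1-1enap2 Dehydration, against 1095 and 1077 CPM in enap1-1enap2 Mock, and 678 and 673 CPM in Col-0 Dehydration, against 974 and 1146 CPM in Col-0 Mock. It fell by 0.60 in the mutant and by 0.65 in Col-0, and PSBY, a small subunit, fell by 0.64 and by 0.63. PSBTN, also small, had 448 and 471 CPM in enap1-1enap2 Dehydration, against 663 and 664 CPM in enap1-1enap2 Mock, and 430 and 426 CPM in Col-0 Dehydration, against 678 and 794 CPM in Col-0 Mock, and it fell by 0.53 and by 0.78. PSBW, which holds the supercomplex together, had -0.01 ± 0.10 in the mutant and fell by 0.29 in Col-0, a fall lost without either Col-0 Dehydration library (edgeR adjusted p = 0.0668 and 0.0833). PSBX, another small subunit, had 561 and 599 CPM in enap1-1enap2 Dehydration, against 801 and 818 CPM in enap1-1enap2 Mock, and 554 and 493 CPM in Col-0 Dehydration, against 847 and 1060 CPM in Col-0 Mock. It fell by 0.48 and by 0.87, and its groups did not overlap in either genotype.

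Summed over genes, the antenna was set against the subunits in each library as a ratio of counts. LHCB1.5, whose reads could not be counted, is missing from the antenna sum. The ratio was 1.00 and 1.07 in enap1-1enap2 Dehydration, against 1.01 and 1.01 in enap1-1enap2 Mock, and 1.31 and 1.33 in Col-0 Dehydration, against 1.08 and 1.07 in Col-0 Mock. The ratio was thus higher in both Col-0 Dehydration libraries than in any other library, while in the mutant the groups overlapped. LHCB1.3 alone holds 0.62% to 1.24% of all counts, and without it the ratio was 0.678 and 0.717 in enap1-1enap2 Dehydration, against 0.589 and 0.589 in enap1-1enap2 Mock, and 0.756 and 0.781 in Col-0 Dehydration, against 0.626 and 0.610 in Col-0 Mock. Without LHCB1.3 the ratio was higher after dehydration in both genotypes. Taken per gene rather than by sum, the class medians relative to the Col-0 Mock mean gave -0.44 and -0.42 for PSB in enap1-1enap2 Dehydration, against -0.03 and -0.06 in enap1-1enap2 Mock, and -0.56 and -0.66 in Col-0 Dehydration, against -0.13 and 0.12 in Col-0 Mock. For LHCA they gave 0.14 and 0.14 in enap1-1enap2 Dehydration, against -0.15 and -0.19 in enap1-1enap2 Mock, and -0.08 and -0.13 in Col-0 Dehydration, against -0.14 and 0.13 in Col-0 Mock.

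**Figure D3:**
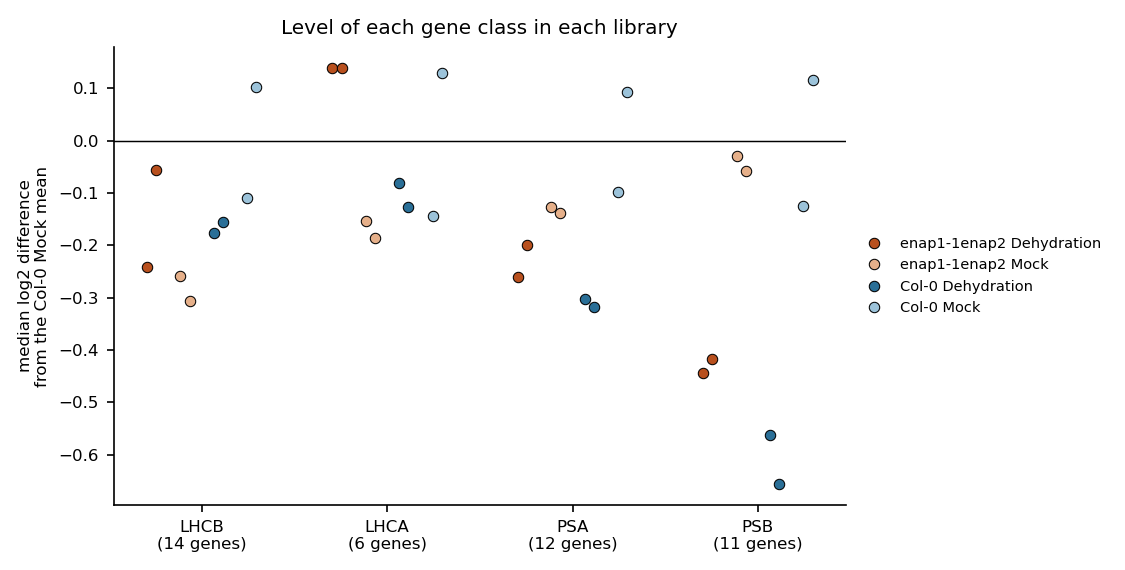
Median over the genes of each class of the log2 difference from the Col-0 Mock mean, 1 point per library, for LHCB, LHCA, PSA and PSB genes. PSB lies at -0.44 and -0.42 in enap1-1enap2 Dehydration and at -0.56 and -0.66 in Col-0 Dehydration, and the 2 Col-0 Mock libraries lie on either side of 0 in every class.

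Whole seedlings were sampled, and markers of other tissues moved with the treatment. Of 14 root markers, 13 fell in enap1-1enap2 and 12 in Col-0, at all-gene rates of 32.4% and 30.0%. Their summed level was 1070 to 1380 CPM in enap1-1enap2 Dehydration, against 3160 to 3210 CPM in enap1-1enap2 Mock. In Col-0 the sum was 1210 to 1340 CPM in Dehydration, against 2860 to 2900 CPM in Mock. Most of that sum was PYK10, and without it the other 13 markers summed to 39.0 to 40.2 CPM in enap1-1enap2 Dehydration, against 127 to 137 CPM in enap1-1enap2 Mock, and 41.5 to 47.4 CPM in Col-0 Dehydration, against 119 to 155 CPM in Col-0 Mock. Of 11 leaf and shoot markers outside photosynthesis, 10 fell and 1 rose in enap1-1enap2 and 8 fell in Col-0, with sums of 170 to 179 CPM, against 244 to 251 CPM, in the mutant and 201 to 208 CPM, against 257 to 272 CPM, in Col-0. The 8 in Col-0 were 4 without Col-0 Dehydration replicate 1 and 5 without Col-0 Mock replicate 2. Both tissues' markers were present in all groups, with 2 root markers at 0 in a library of enap1-1enap2 Dehydration and 1 at 0 in a library of each Col-0 group. Their part in the changes of the members was not tested, and in bulk samples fewer green cells and less RNA per green cell cannot be told apart.

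Comparing the genotypes under Mock, 7 members were lower in enap1-1enap2 than in Col-0 and 0 were higher, at an all-gene rate of 7.17% (3.47% higher and 3.70% lower). The libraries of the genotypes did not overlap for 23 members, at an all-gene rate of 51.4%. In edgeR 0 were higher at an unadjusted p under 0.05 and by DESeq2 0 were higher and 9 lower, and 16 were lower at an unadjusted p under 0.05. The 7 were LHCB1.1, LHCB1.4, LHCB2.1, LHCB2.2, LHCB4.3, PSAE1 and PSAG, with log2 fold changes between -0.55 and -0.31, so that none passed the fold thresholds, at an all-gene rate of 1.34%. All 20 tested antenna genes had negative values, with a median of -0.22, beside -0.08 for the subunits and -0.01 for all genes. Without Col-0 Mock replicate 1 the medians were -0.30 and -0.19, and without Col-0 Mock replicate 2 they were -0.14 and 0.01, so that the sign of the subunit median turned. These calls rest on few libraries, and no all-gene rate is given for the fits with a library left out. Not 1 of the 7 held with each library left out in turn, the count was 0 without either enap1-1enap2 Mock library, it was 4 without Col-0 Mock replicate 2, and without Col-0 Mock replicate 1 it was 25.

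Under Dehydration, 8 members were higher and 3 lower in enap1-1enap2 than in Col-0, at an all-gene rate of 14.7% (6.56% higher and 8.14% lower). Libraries did not overlap for 35 members, at an all-gene rate of 57.5%. The 3 lower ones were LHCB1.1 (-1.24 ± 0.11, edgeR adjusted p = 3.83e-06), LHCB1.2 (-0.76 ± 0.11) and LHCB1.3 (-0.58 ± 0.12), the 3 neighbours on chromosome 1. LHCB1.4, on chromosome 2, had -0.04 ± 0.13 and its groups overlapped. The 8 higher ones were LHCB2.1, LHCB2.2, LHCB2.3, LHCB4.2, LHCA5, PSAD2, PSAH1 and PSBO2, led by LHCB2.3 (1.16 ± 0.22, edgeR adjusted p = 0.00232) and LHCB4.2 (0.62 ± 0.09, edgeR adjusted p = 0.000263). LHCB1.1 and LHCB2.3 also passed the fold thresholds, at an all-gene rate of 2.41%. Leaving out each library in turn, 7 of the 11 calls held, and 4 did not. LHCB2.1 lost it without replicate 2 of either dehydrated group (edgeR adjusted p = 0.104 and 0.167), PSBO2 without these or enap1-1enap2 Dehydration replicate 1 (0.0576 to 0.137), LHCA5 without any dehydrated library (0.07 to 0.126) and PSAH1 without any library but those of Col-0 Mock (0.0887 to 0.273). The number of calls was 7 without enap1-1enap2 Dehydration replicate 2 or without Col-0 Dehydration replicate 2, and 18 or 17 without a Col-0 Mock library.

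The difference between the dehydration responses, enap1-1enap2 minus Col-0, was tested as the interaction of genotype and treatment. It passed for 13 members, 11 with a higher and 2 with a lower response in the mutant, at an all-gene rate of 16.8% (8.07% higher and 8.76% lower). The number was 23 with library size alone, 22 with DESeq2 and 22 with no count filter. The median difference was 0.39 for the antenna and 0.25 for the subunits, beside 0.01 for all genes, and 37 of 43 members had a positive value. The subunit median was 0.39 without Col-0 Mock replicate 1 and 0.13 without Col-0 Mock replicate 2. Of the antenna genes 8 were higher and 2 lower, and of the subunits 3 were higher (PSAD2, PSAE1 and PSAG). No PSB gene passed in edgeR or was lower at an unadjusted p under 0.05, but 3 were higher at an unadjusted p under 0.05, and DESeq2 called 3 higher. The higher responses were those of LHCB2.3 (1.74 ± 0.30), LHCB2.2 (0.85 ± 0.11), LHCB2.1 (0.73 ± 0.13), LHCB7 (0.70 ± 0.19), LHCB4.2 (0.66 ± 0.12), PSAD2 (0.53 ± 0.11), PSAE1 (0.53 ± 0.13), LHCA5 (0.53 ± 0.14), LHCB4.3 (0.47 ± 0.15), PSAG (0.42 ± 0.12) and LHCA6 (0.39 ± 0.11). The lower ones were those of LHCB1.1 (-0.72 ± 0.15) and LHCB1.2 (-0.58 ± 0.15), and LHCB1.3 had -0.36 ± 0.17, which did not pass.

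All 3 LHCB2 genes thus had positive differences, while the LHCB1 genes of chromosome 1 had negative ones. LHCB1.4, on chromosome 2, rose more in the mutant (1.85) than in Col-0 (1.33), and its difference was not among the 13 calls. Of the LHCB2 genes only LHCB2.1 rose in Col-0, where the groups of LHCB2.2 overlapped and LHCB2.3 fell. With near-identical copies summed, LHCB1.1 to LHCB1.3 among them, the interaction passed for 10 higher and 0 lower responses. LHCB2.1, LHCB2.2, LHCB2.3, LHCB4.2, LHCB1.1 and PSAD2 kept the interaction call with each of the 8 libraries left out, and the other 7 lost it at least once. LHCB4.3 lost it in 7 of the 8 fits, all but that without Col-0 Mock replicate 1, and with RLE scaling (edgeR adjusted p = 0.0523). The count was 6 to 8 without enap1-1enap2 Dehydration replicate 2, either enap1-1enap2 Mock library or Col-0 Dehydration replicate 1. The count was highest without Col-0 Mock replicate 1, in which nearly all members were lower than in replicate 2. No all-gene rate is given for the fits with a library left out, so their counts cannot be set against it.

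**Figure D4:**
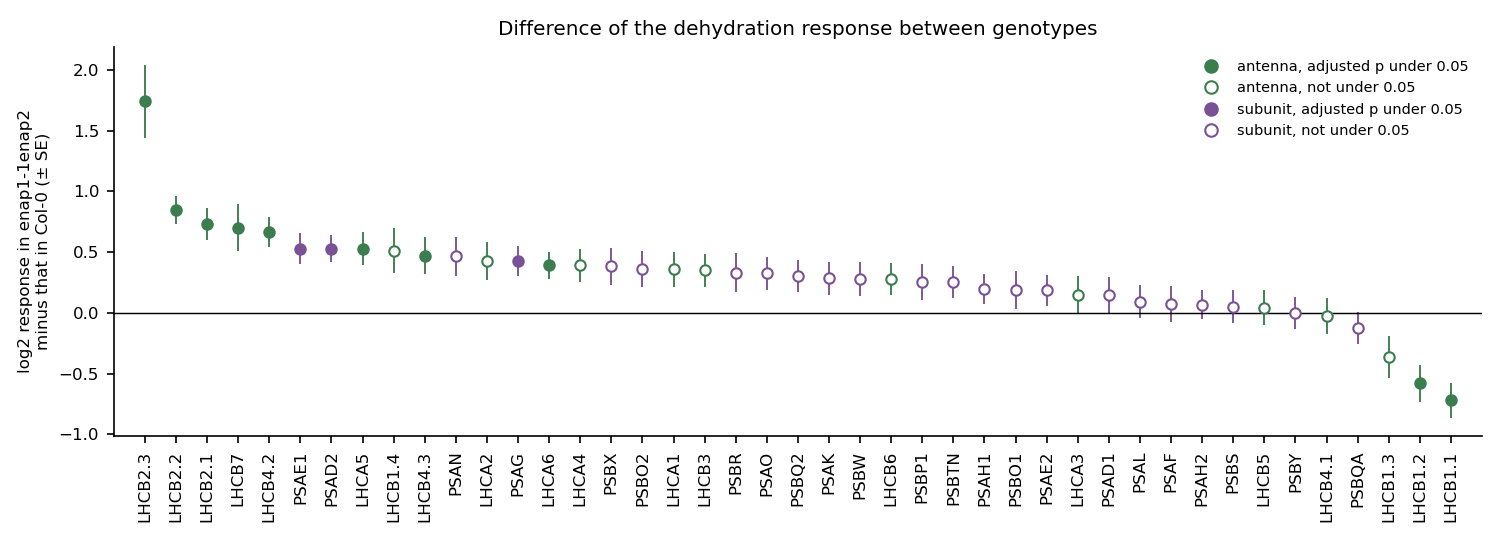
Difference of the log2 dehydration response between enap1-1enap2 and Col-0 (± SE) for the 43 tested members, sorted, with antenna genes in green and subunits in purple. Filled points have an adjusted p under 0.05. LHCB2.3 (1.74), LHCB2.2 (0.85) and LHCB2.1 (0.73) lie at the high end and LHCB1.1 (-0.72) and LHCB1.2 (-0.58) at the low end.

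Other genes of photosynthesis, taken from lists by function, give the setting. Beside the counts in these lists, the all-gene rates were 32.4% fallen and 32.2% risen in enap1-1enap2. In Col-0 they were 30.0% fallen and 29.7% risen. All 11 carbon fixation genes fell in both genotypes, with medians of -0.78 in enap1-1enap2 and -0.77 in Col-0, beside the antenna medians of 0.15 and -0.12. RBCS1B, a small subunit of Rubisco, had 182 and 187 CPM in enap1-1enap2 Dehydration, against 2129 and 2108 CPM in enap1-1enap2 Mock, and 270 and 251 CPM in Col-0 Dehydration, against 1726 and 2133 CPM in Col-0 Mock, and RBCS2B fell by 1.84 and by 1.98. Of 16 chlorophyll synthesis genes, 13 fell and 1 rose in the mutant and 10 fell in Col-0, with PORB, a protochlorophyllide reductase, down by 1.63 and by 1.32. PORA, among the 10 and with the largest change of the list, had 50.5 CPM in Col-0 Mock replicate 1 and 0.527 CPM in replicate 2, and with each library left out in turn 10 to 12 genes of the list fell in Col-0. Of 12 genes of thylakoid electron transport and ATP synthase, 7 fell in the mutant and 9 in Col-0, led by FED2, a ferredoxin (-1.59 and -1.55), and ATPD, a subunit of the ATP synthase (-1.23 and -1.21).

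Of the 10 genes for antenna delivery, phosphorylation and photosystem assembly, 3 rose and 5 fell in the mutant and 3 rose and 3 fell in Col-0. The 5 were 3 without enap1-1enap2 Dehydration replicate 1 or without either enap1-1enap2 Mock library. STN7, the kinase of the mobile antenna, rose by 1.09 in enap1-1enap2 and by 0.65 in Col-0, and TAP38, the phosphatase that opposes it, rose by 1.00 and by 0.49. cpSRP43, which carries antenna proteins to the thylakoid, fell by 1.39 and by 1.00, and PSB28, a photosystem II assembly factor, had 73.3 and 71.6 CPM in enap1-1enap2 Dehydration, against 155 and 156 CPM in enap1-1enap2 Mock, and 90.5 and 79.2 CPM in Col-0 Dehydration, against 161 and 200.2 CPM in Col-0 Mock, and fell in both. Among 6 LHC-like stress proteins, relatives of the antenna that bind pigment under strong light or stress, 3 rose in the mutant, and in Col-0 1 rose and 2 fell. That 1 rise in Col-0 did not hold with any of 6 of the 8 libraries left out, the exceptions being enap1-1enap2 Dehydration replicate 1 and Col-0 Mock replicate 2, and 1 fell without Col-0 Dehydration replicate 2. ELIP1 had 275 and 266 CPM in enap1-1enap2 Dehydration, against 91.8 and 93.5 CPM in enap1-1enap2 Mock, and 176 and 171 CPM in Col-0 Dehydration, against 148 and 154 CPM in Col-0 Mock. The interaction passed for 4 of the 6, all higher in the mutant, at an all-gene rate of 16.8% (8.07% higher). It was 1.35 ± 0.11 for ELIP1 and 1.13 ± 0.13 for ELIP2.

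The transcription factor list held 10 genes, of which 7 fell and 3 rose in each genotype. GLK1 and GLK2, activators of antenna and chlorophyll synthesis genes, fell by 1.59 and by 1.16 in enap1-1enap2 and by 1.23 and by 0.75 in Col-0. GNC, a GATA factor of greening, had 8.06 and 7.88 CPM in enap1-1enap2 Dehydration, against 44.4 and 47.5 CPM in enap1-1enap2 Mock, and 12.8 and 10.7 CPM in Col-0 Dehydration, against 42.3 and 46.5 CPM in Col-0 Mock. PIF3, a bHLH factor that represses greening in the dark, rose by 2.82 in the mutant and by 2.68 in Col-0.

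**Figure D5:**
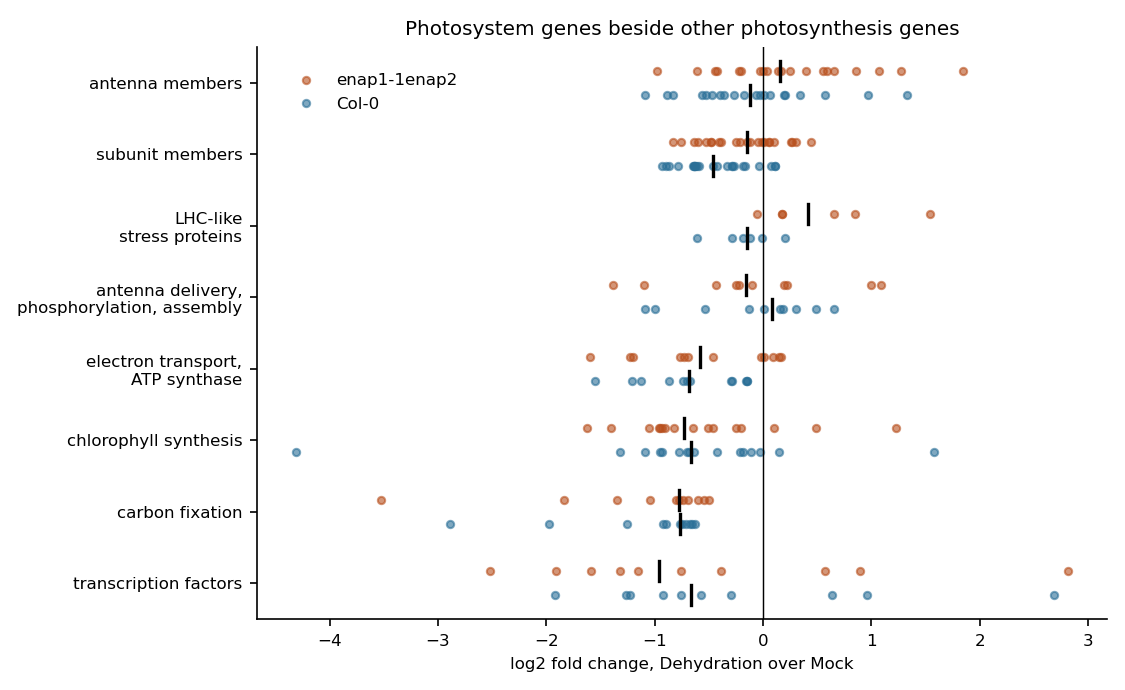
Log2 fold change of Dehydration over Mock for the antenna and subunit members and for 6 other lists of photosynthesis genes, 1 point per gene, enap1-1enap2 above Col-0 in each list and black ticks for medians. The antenna medians are 0.15 and -0.12 and those of carbon fixation are -0.78 and -0.77.

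The upstream windows of all 44 members were searched for the same 6 motifs. CCAATC was in 10 of the 21 antenna windows (47.6%) and in 1 of the 23 subunit windows (4.35%), beside 10.5% of the 21613 windows of tested genes that could be read. The ABRE core was in 9 antenna windows (42.9%) and 10 subunit windows (43.5%), beside 23.9% of all, and the G-box was in 5 of each, beside 7.44% of all. The I-box was in 4 antenna and 5 subunit windows (19.0% and 21.7%), beside 12.2% of all, and the CCA1 motif in 3 and 2 (14.3% and 8.70%), beside 6.61% of all. The evening element was in 1 window, that of LHCA5, beside 2.40% of all.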

How the data were processed

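Per the labels, file headers and methods, the authors trimmed reads with Trim Galore 0.6.7, mapped them to TAIR10 and counted reads per gene with featureCounts of Subread 2.0.1, depositing raw counts with no normalization. Per the file headers, counting ran at default settings, which ignore strand, count mates singly and leave out reads on more than 1 gene or mapped to several places.

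The members and gene lists were chosen with earlier results of these data known. Counts were fitted with edgeR 4.0.16 (R 4.3.3, limma 3.58.1): genes were filtered by filterByExpr, scaled by TMM and fitted as 4 group means over 8 libraries with a quasi-likelihood model, from which 5 contrasts were tested, each with Benjamini-Hochberg adjustment over 21614 genes. An SE is the log2 fold change over the square root of the F statistic. CPM are TMM-scaled, and TPM use the deposited gene lengths. Floors cover counting error only. With 2 libraries per group an exact permutation test cannot reach 0.05 and was not used. The steps were tested on simulated counts.

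Values in every library were given, by class, for the 2 genes with the largest response in Col-0, the 1 with the smallest and the 2 with the smallest interaction p, for paralog pairs and for the LHCB1, LHCB2 and LHCB4 genes. Of each other list the 2 genes with the largest change in either genotype were named. STN7, TAP38, GLK1 and GLK2, and the values by library of LHCB3, LHCB6, LHCB7, LHCA4 and PSBS, were chosen after their values were seen. Gene coordinates of the count table matched the start and end in RefSeq TAIR10.1 for all 44 members. Sequences were read with Python 3.11.15 and Biopython 1.88, and figures drawn with matplotlib 3.10.9. Alternatives were RLE, upper quartile and library size scaling, TMM without organelle genes, DESeq2 1.42.0, other count filters and thresholds, near-identical copies summed, fits on the 4 libraries of a comparison, a replicate block and each library left out.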

Additional observations from a re-analysis of the deposited data

Results flagged for a closer look

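For 13 members the dehydration response, as log2 fold change, differed between the genotypes by the edgeR interaction test. The all-gene rate was 16.8% (8.07% higher and 8.76% lower), and not all of the 13 calls held with each library left out. The response in enap1-1enap2 minus that in Col-0 was 1.74 for LHCB2.3, 0.846 for LHCB2.2, 0.733 for LHCB2.1, 0.703 for LHCB7, 0.664 for LHCB4.2, 0.53 for PSAD2, 0.53 for PSAE1, 0.529 for LHCA5, 0.471 for LHCB4.3, 0.424 for PSAG and 0.394 for LHCA6. It was negative for LHCB1.1, at -0.721, and for LHCB1.2, at -0.58. In LHCB2.3 the signs of the responses were opposite, 0.65 in enap1-1enap2 and -1.09 in Col-0, and both passed the test. LHCB2.3 is also a gene of low level with 40.6% of its exon bases shared with another gene, and its Col-0 Mock libraries differed most among the LHCB2 copies (26.5 and 14.3 CPM). Groups of 2 libraries were too small to look for single outlying samples.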

How the results depend on the processing

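Over all alternatives, 3488 of 3797 single-gene results kept their direction and side of the threshold, 133 no longer passed, 176 newly passed and 0 turned round. The 3488 include 215 from the fit without organelle genes, which could not differ because those genes had 0 counts. They also include 185 from the fit with copies summed, which cover only genes that were not summed. With an absolute log2 fold change over 1.5, the members past the fold thresholds were 1 in enap1-1enap2, 0 in Col-0 and 0 between genotypes under Dehydration. In Col-0 they were 7 with upper quartile scaling and 7 with library size alone, and with near-identical copies summed 1 differed between genotypes under Dehydration. At an adjusted p under 0.01 the calls were 2 between genotypes under Mock, 7 under Dehydration and 6 for the interaction, which had 23 with library size alone, 22 with DESeq2 and 22 with no count filter. The cause was not tested. All-gene rates are given only for the fit as reported. Counts under other settings, left-out libraries included, thus have no all-gene rate of the same setting beside them.

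Leaving out each library gave 21 to 32 calls in enap1-1enap2, 25 to 35 in Col-0, 0 to 25 between genotypes under Mock, 7 to 18 under Dehydration and 6 to 34 for the interaction. Past the fold thresholds these fits gave 3 to 4, 2 to 3, 0 to 0 and 2 to 2. Where 1 library is left in a group it is assumed to vary like the others.

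Deviations of same-numbered libraries correlated at -0.06 to 0.08 between groups, so the counts showed no pairing by replicate number. With 1 difference per group, this cannot tell whether same-numbered libraries were grown or handled together. With the replicate block, calls were 26 in enap1-1enap2, 30 in Col-0, 7 under Mock, 10 under Dehydration and 13 for the interaction. The interaction could not be fitted on 4 libraries, as it needs all groups.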
